A study of Mus musculus with 3 samples.

Results

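In dissociated dorsal skin of the mouse, a small set of fibroblasts carried transcripts of Vwa1 together with Apod, a pairing associated with the connective tissue of peripheral nerves. The cells came from C57BL/6 animals profiled by droplet single-cell RNA sequencing, with 1 library each of neonatal, 3-week-old and 2-month-old skin, and no treatment or genetic change is named in the labels. How many animals or biopsies were pooled per library, and their sex, is not given in the sources used here. The submitters titled the series for the interplay of the IL-1 and WNT pathways in cells that give rise to dermal fat. In the 3 week and 2 month libraries, barcodes with at least 300 detected genes, 500 unique molecular identifiers (UMIs, counted transcripts) and at most 10% mitochondrial UMIs were kept, 18232 in all. A barcode entered the fibroblast gate if Col1a1, Col1a2, Col3a1 and Dcn together made up at least 2% of its UMIs and it had no UMI of Sox10 or Cdh19 (glia), Ptprc (leukocytes), Pecam1 (endothelium) or Rgs5 (pericytes), which left 9705 barcodes. Members were chosen by UMI counts of Vwa1 and Apod within the gate, as the barcodes with 2 or more UMIs of Vwa1 and 3 or more of Apod, 94 in all. Comparators were the 9282 gate barcodes without a UMI of Vwa1.

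Peripheral nerves run through the dermis wrapped in layered connective tissue. Endoneurial fibroblasts lie among the axons and their Schwann cells inside a nerve bundle, perineurial cells form the barrier sheath around the bundle, and epineurial fibroblasts lie outside it. Vwa1 encodes WARP, a secreted protein with a von Willebrand factor A domain that binds perlecan in basement membranes, including those of nerve. Apod encodes apolipoprotein D, a lipid-carrying lipocalin made by endoneurial fibroblasts, and Spp1 encodes osteopontin, a secreted phosphoprotein. Schwann cells release the ligand Dhh, to which cells of the nerve sheath respond through Ptch1 and Gli1. On the GRCm38 build with GENCODE vM21 annotation, Vwa1 lies on the minus strand of chromosome 4 from 155768149 to 155774698, Apod on the minus strand of chromosome 16 from 31296192 to 31314808, and Spp1 on the plus strand of chromosome 5 from 104435118 to 104441050. All 3 are annotated as protein-coding genes.

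Members were rare at both ages. They numbered 37 of 5282 gate barcodes at 3 weeks, a share of 0.700% (exact Clopper-Pearson 95% interval 0.494 to 0.964), and 57 of 4423 at 2 months, 1.29% (0.977 to 1.67). Intervals cover counting error only. With 1 library per age, no difference between ages was tested anywhere below. Depth moves this count, because the rule asks for UMIs. Gate barcodes with 2000 or more UMIs, 35 of the 37 and 53 of the 57 members among them, were thinned to 2000. After this, 10 and 28 still met the rule. Members had fewer UMIs than comparators, with medians of 5899 and 4248 per barcode against 12558 and 10885 at 3 weeks and 2 months. Their median mitochondrial shares were 3.09% and 2.61% against 2.67% and 2.29%. The Scrublet method marked 1 of the 37 and 4 of the 57 as doublets, and 211 and 348 of all kept barcodes. Of the 27 barcode sequences shared by the 3 week and 2 month libraries, 1 was a member in either library and none in both.

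The values that chose the members are a description. Members carried 2 to 7 UMIs of Vwa1 at 3 weeks and 2 to 14 at 2 months, with a median of 3 at both ages. Apod spanned a wider range, from 3 to 226 UMIs with a median of 27 at 3 weeks and from 3 to 431 with a median of 80 at 2 months. Just outside the rule, 64 and 81 gate barcodes had 1 UMI of Vwa1 with 3 or more of Apod, and 21 and 11 had 2 or more of Vwa1 with fewer than 3 of Apod. Another 20 and 34 barcodes met the rule except for a UMI of an excluded gene. Levels below are given as CPM, the summed UMIs of a gene scaled to the UMI total of its class in a library. Spp1 read 31.4 and 143 CPM in the barcodes with 1 UMI of Vwa1 and 3 or more of Apod at 3 weeks and 2 months, against 143 and 951 CPM in members. In barcodes with enough Vwa1 but fewer than 3 Apod UMIs it read 0 and 21 CPM. Thbs4, a matrix glycoprotein, read 4500 and 21 CPM in those same low-Apod barcodes. Meox1, a homeobox gene described below, read 405 and 0 CPM in them, against 155 and 114 in members.

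**Figure D1:**
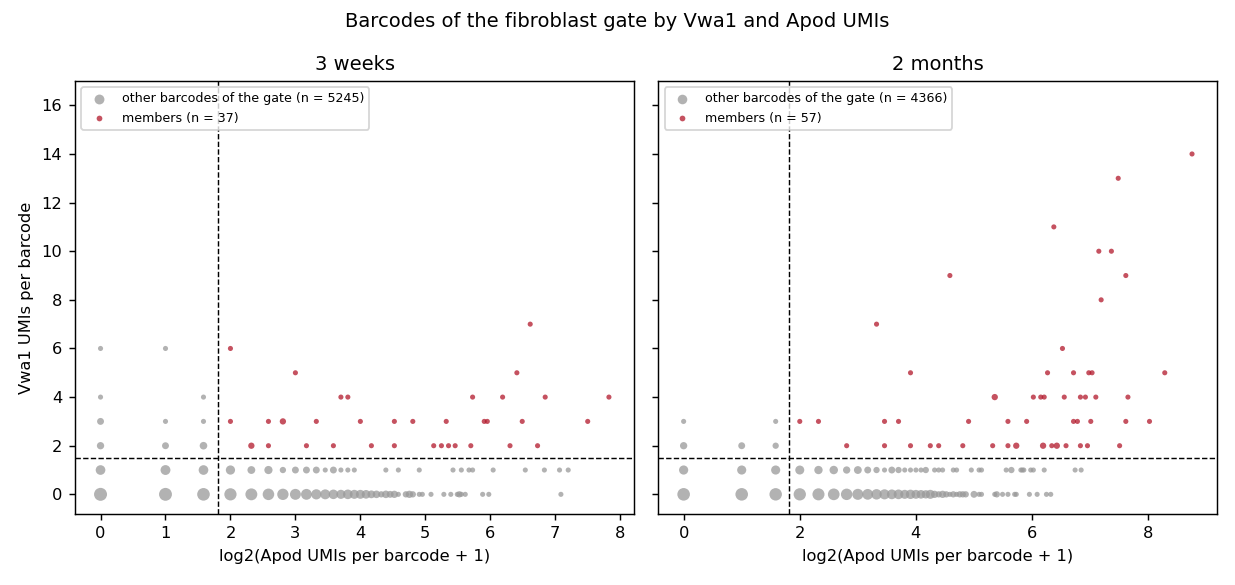
Barcodes of the fibroblast gate in the 3 week (left) and 2 month (right) libraries by UMIs of Apod (log2 of the count plus 1, x axis) and of Vwa1 (y axis); dashed lines mark the thresholds, a larger point stands for more barcodes, and members are red. The members reach 226 Apod UMIs at 3 weeks and 431 at 2 months, and most other barcodes of the gate sit at 0 UMIs of Vwa1.

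Among the genes of the rule, read here without a test, the type I collagen genes were lower in members than in comparators and Dcn was not. Members held 13959 and 9600 CPM of Col1a1 at 3 weeks and 2 months, and comparators 57135 and 58829. Dcn, the small proteoglycan decorin, read 15324 and 31974 CPM in members against 12934 and 15117 in comparators. Apod read 5058 and 15905 CPM against 205 and 282. Comparators, like members, were chosen to hold no Sox10, Cdh19, Ptprc, Pecam1 or Rgs5.

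Counts summed over members and over comparators of each library were compared with edgeR's quasi-likelihood test, with the library as a block and Benjamini-Hochberg adjustment over all genes tested. Of 13296 genes, 731 passed an adjusted p of 0.05, which is 5.5% in either direction, 2.73% higher in members and 2.77% lower. The split was 363 higher and 368 lower, and scaling by library totals in place of trimmed means gave 658 higher and 242 lower. Scaling by library totals moved the median log2 fold change of all genes tested from -0.13 to 0.19. DESeq2, with its own size factors and test, gave 272 and 130. Of the 363 higher genes 358, and of the 368 lower genes 352, had that direction in each library, where 19 of the 358 had under 3 UMIs in the members of a library and were set to 3. Of the higher genes 294 had a UMI in 10 or more members and 36 owed over 50% of their UMIs to 1 member. Whether members of a library come from separate animals is not known. The block takes up the difference between the libraries. What the test measures is how the difference of members and comparators varies between 2 libraries of different ages. That leaves 1 residual degree of freedom. Without the library block 3 genes passed, Foxs1, Tenm2 and the thioesterase gene Acot1, the last named after its values were seen.

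Most listed genes of endoneurial fibroblasts were higher in the members. Of 10 listed genes, all tested, 7 were higher in members and 1 was lower, with a median log2 fold change of 2.78 against -0.13 for all genes. Both the count and the median include Spp1. Spp1, which was proposed with the members as their marker and so is not independent of their choice, had 143 CPM at 3 weeks and 951 at 2 months in members, against 7.52 and 3.48 in comparators (log2 fold change 5.93 ± 0.56 SE, adjusted p = 4.07e-09). It was high at both ages, and 14 of 37 and 45 of 57 members held a UMI. Meox1, a homeobox transcription factor of the somite lineage, had 155 and 114 CPM against 9.30 and 0.660 (5.15 ± 0.43, adjusted p = 3.7e-10), with a UMI in 16 and 24 members. Sox9, the transcription factor of cartilage and of several progenitor cells, had 97.5 and 308 CPM against 8.20 and 7.0 (4.28 ± 0.33). At 2 months 40.8% of the Sox9 UMIs came from 1 member, and 29 of 57 members held one. The lipid transporter gene Abca8a was the most widely detected of the list, in 34 of 37 and 48 of 57 members, with 350 and 476 CPM against 49.2 and 71.8 (2.47 ± 0.30). Its paralogue Abca9 and the transcription factor Etv1 were higher by 1.53 ± 0.30 and 3.09 ± 0.72 on the log2 scale. Angptl7, a secreted angiopoietin-like protein, also passed, but its 30 UMIs lay in 4 members at 2 months, 80.0% of them in 1, and none at 3 weeks. The exception was Osr2, a zinc finger transcription factor, lower in members at 48.8 and 245 CPM against 178 and 285, a call that DESeq2 and library totals did not make. Cygb and Wif1 did not pass.

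Detection per barcode also differed at equal depth, over a list of 10 genes that includes Spp1. After thinning to 2000 UMIs, which left out 2 and 4 shallower members, 3 or more of the 10 endoneurial genes were seen in 17.1% and 54.7% of members and in 1.03% and 1.63% of comparators. Without thinning, 28 of 37 and 49 of 57 members carried 3 or more, against 20.5% and 18.7% of the deeper comparators. Spp1 was seen in 20% and 58.5% of thinned members. In thinned comparators it was seen in 1.25% and 0.704%, and in thinned keratinocytes, which should lack it, in 0.0980% and 0.135%. Barcodes gated as keratinocytes had median totals of 12392 and 11069 UMIs before thinning.

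Several of these genes were also found in Schwann cells. In barcodes gated as Schwann cells, 280 and 467 in number, Vwa1 read 313 and 380 CPM and Spp1 read 279 and 670 CPM. Sox9 read 137 and 112 CPM there. Meox1 separated the classes, with no UMI in the Schwann gate at either age, and so did Abca8a at 73.8 and 58.3 CPM. Comparators with 3 or more UMIs of Apod, 1735 and 1961 barcodes, held 12.8 and 4.3 CPM of Spp1 and 12.3 and 0.984 of Meox1. Against these alone 305 genes were higher in members and 288 lower.

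**Figure D2:**
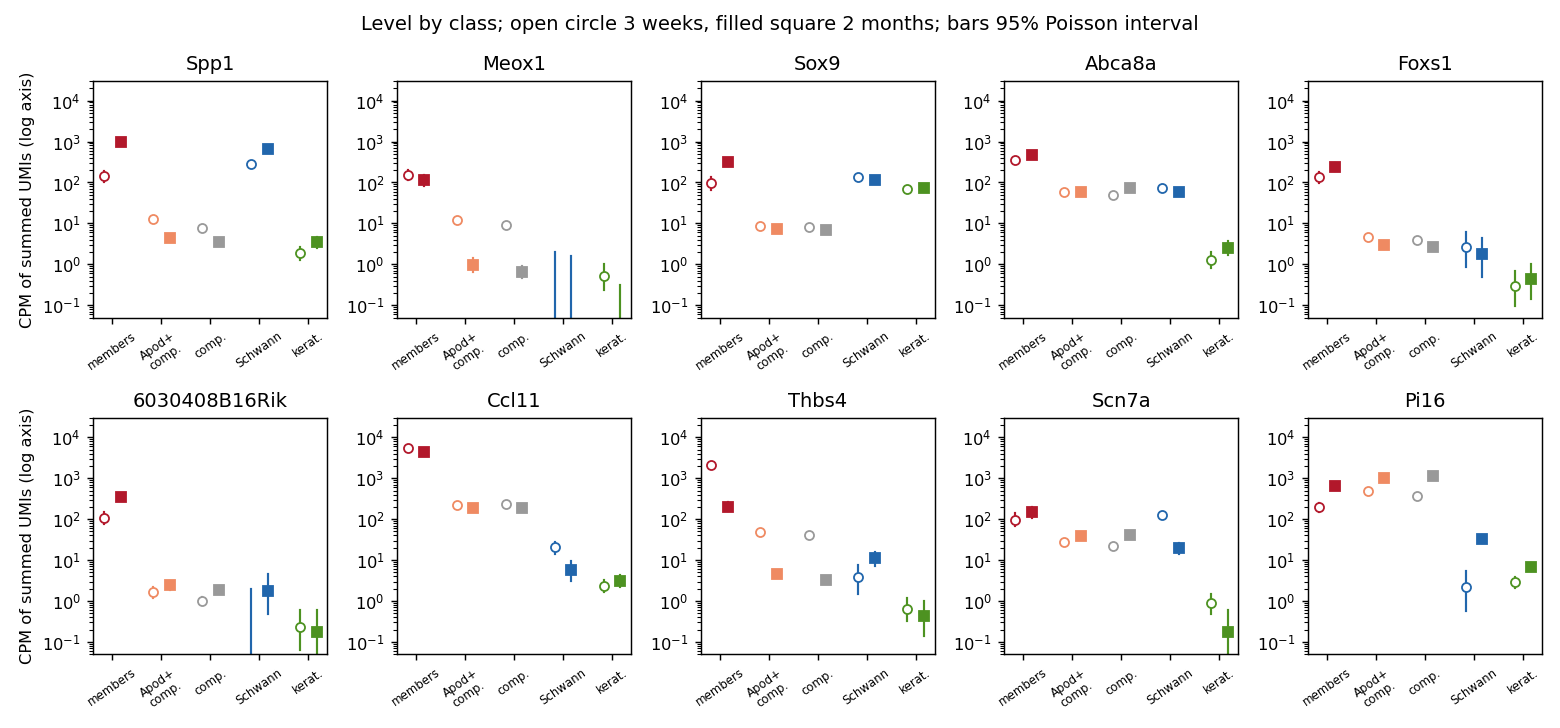
Level of 10 genes in CPM of summed UMIs (log axis) in members, comparators with 3 or more Apod UMIs, all comparators, Schwann-gate barcodes and keratinocyte-gate barcodes, at 3 weeks (open circles) and 2 months (filled squares) with 95% Poisson intervals; a bar without a point marks 0 UMIs. Spp1 and Sox9 are high in both members and the Schwann gate, whereas 6030408B16Rik, Foxs1 and Ccl11 are highest in members among these 5 classes.

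The lists for the other layers of the nerve sheath gave mixed results. Of the list for epineurial and interstitial fibroblasts, 8 of 11 tested genes were lower in members and none was higher, with a median of -1.31. Pcolce2, an enhancer of procollagen processing, read 18.3 and 92.7 CPM in members against 258 and 610 (log2 fold change -3.47 ± 0.36). Ly6c1, a surface antigen of adventitial fibroblasts, was lower by 2.44 ± 0.32. Pi16, the marker of a pan-tissue adventitial state, read 195 and 652 CPM against 367 and 1163, and was seen in 10 of 37 and 11 of 57 members. Most of its UMIs lay in members with fewer than 10 UMIs of Apod, 62 of 64 at 3 weeks and 174 of 218 at 2 months, and the other members read 12.4 and 173 CPM. Dpp4, Cd248, Clec3b, Dpt and Sfrp2 made up the other lower genes. The 3 that did not pass were Fbn1, Mfap5 and Sfrp4.

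Of 10 tested perineurial genes 2 were higher in members and none was lower, with a median of 1.25. Cldn1, a tight junction protein of the perineurial barrier and of epidermis, read 33.5 and 132 CPM against 6.95 and 8.54 (2.95 ± 0.38), with a UMI in 7 and 20 members. Perp, a desmosomal protein shared with keratinocytes, also passed, but 2 members held its UMIs at 3 weeks, 98.4% of them 1 member. At 2 months the members with the most Cldn1 held 11, 6 and 5 of its UMIs. The same barcodes held 47, 57 and 15 UMIs of Perp. Slc2a1, the glucose transporter of perineurium, read 27.4 and 41.9 CPM against 12.2 and 9.18 and did not pass (adjusted p = 0.0572).

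**Figure D3:**
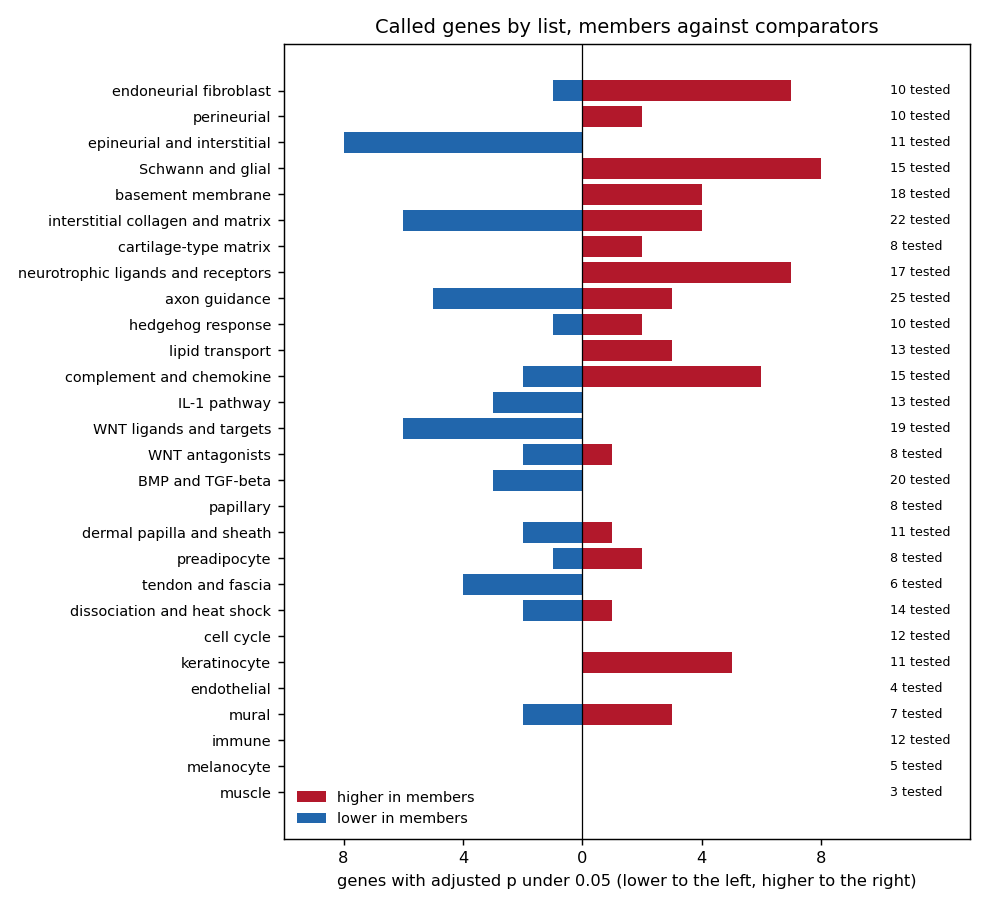
Number of genes of each list that passed an adjusted p of 0.05 in members against comparators, higher to the right and lower to the left, with the number tested at the right edge. The endoneurial list, which includes Spp1, shows 7 higher of 10, and the epineurial and interstitial list 8 lower of 11.

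Outside the lists, the strongest gene by p was 6030408B16Rik, an uncharacterised protein-coding gene on the plus strand of chromosome 15 from 101293212 to 101297426. It read 107 and 353 CPM in members and 1.01 and 1.86 in comparators (log2 fold change 6.86 ± 0.32, adjusted p = 2.06e-16). A UMI was found in 19 of 37 and 43 of 57 members and, without thinning, in 0.849% and 1.23% of comparators. Schwann-gate and keratinocyte-gate barcodes held at most 1.75 CPM. Foxs1, a forkhead transcription factor first described in sensory neurons and the vessel wall, read 134 and 239 CPM against 3.98 and 2.68 (5.48 ± 0.31), in 16 and 29 members. Trf, the iron carrier transferrin, read 317 and 1104 CPM against 7.64 and 31.9 (4.92 ± 0.34), in 11 and 42 members. These 3 genes were high in members of each library and spread over many of them.

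Tenm2, a teneurin adhesion molecule known at synapses, read 54.8 and 108 CPM against 0.677 and 0.680. The collagen gene Col26a1 read 85.3 and 77.8 CPM against 1.15 and 0.140, with a UMI in 14 and 16 members. Rasgrp2, an exchange factor for Rap GTPases, read 107 and 326 CPM against 6.20 and 2.68. The C-type lectin gene Clec1a, the nucleotide-sugar receptor gene P2ry14 and the collagen gene Col8a1 completed the higher genes found in at least 8 members of each library. The remaining named genes rested on few barcodes. Cxcl5 had 33 UMIs at 2 months, 97.0% in 1 member, Ccl5 had all of its 76 UMIs in 1 member, and Gatm lay in 2 and 5 members.

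Among the named lower genes, Ctla2a, a cysteine protease inhibitor, had no UMI in members and 38.3 and 767 CPM in comparators. Against a floor of 3 UMIs per library it was at least 4.19-fold lower at 3 weeks and at least 85.5-fold lower at 2 months. Serpina3n, a secreted serine protease inhibitor, read 27.4 and 38.9 CPM against 262 and 392 (-3.62 ± 0.36). Cgref1, a calcium-binding growth regulator, read 12.2 and 2.99 CPM against 197 and 112. Hpgd and Ptgfr, which degrade and sense prostaglandins, were lower as well, as were Creb3l3, Gm2564 and Mup20. Over the 368 lower genes, 48 had fewer than 3 UMIs in the members of each library, so the size of their difference is not known.

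**Figure D4:**
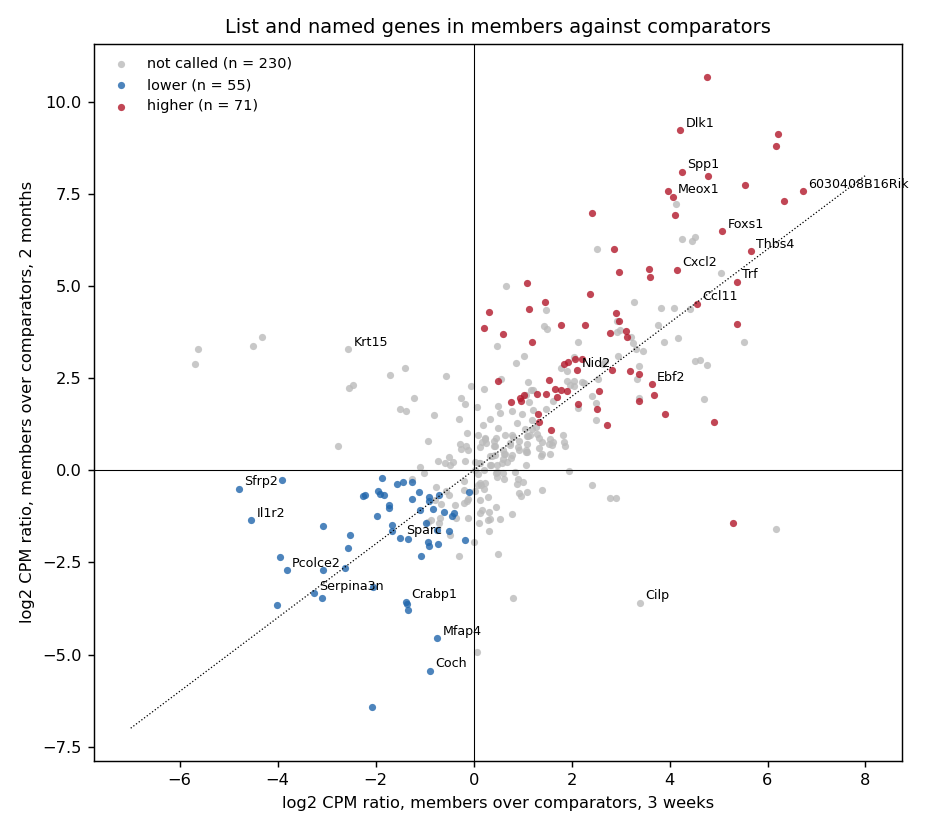
Log2 ratio of CPM in members over comparators at 3 weeks (x axis) and at 2 months (y axis) for the list genes and the other named genes that are reported, without the rule genes; red and blue points passed the test as higher and lower, and counts under 3 UMIs were set to 3. Most called genes lie in the same direction in both libraries. Cilp and Krt15, which were not called, lie in opposite directions.

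Some basement membrane genes were higher in the members. Of 18 tested basement membrane genes 4 were higher and none was lower, with a median of 0.80. Nid2, a nidogen that links laminin to collagen IV, read 122 and 68.8 CPM against 28.4 and 10.5 (2.07 ± 0.29). Hspg2, which encodes perlecan, the known partner of the Vwa1 protein, read 804 and 443 CPM against 324 and 154 (1.10 ± 0.30, adjusted p = 0.0198), with a UMI in 34 of 37 and 46 of 57 members. The laminin chain genes Lamb1 and Lama2 were higher by 1.10 ± 0.28 and 1.03 ± 0.30. Col4a1 read 1015 and 434 CPM against 283 and 255 and did not pass (adjusted p = 0.0718).

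In the interstitial matrix list 4 of 22 genes were higher and 6 lower. Thbs4, a thrombospondin of tendon and nerve matrix, had the largest difference of the list at 2103 and 203 CPM against 41.7 and 3.30 (5.48 ± 0.36), with a UMI in 30 of 37 and 24 of 57 members. Sparcl1 read 503 and 580 CPM against 109 and 72.1 (2.30 ± 0.31) and was detected in 36 and 50 members. Its relative Sparc, a collagen-binding protein, was lower at 19057 and 18127 CPM against 53822 and 64320 (-1.97 ± 0.32). Thbs1 was higher by 2.54 ± 0.37. Tnc passed as higher from 3 members at 3 weeks, with no UMI at 2 months. Mfap4, Fbln5, Thbs2, Fn1 and Col5a1 were lower. Of 8 tested cartilage-type matrix genes, Matn2, a matrilin found in nerve and skin, read 332 and 272 CPM against 79.3 and 33.3 (2.23 ± 0.29). Col9a2 passed on 4 and 9 UMIs, spread over 3 and 9 members.

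Chemokine transcripts were abundant in the members. Of 15 tested complement and chemokine genes 6 were higher and 2 lower. Ccl11, the eosinophil attractant eotaxin, read 5522 and 4372 CPM in members against 234 and 191 in comparators (4.23 ± 0.34, adjusted p = 1.24e-10), and 32 of 37 and 56 of 57 members held a UMI. The neutrophil attractants Cxcl2 and Cxcl1 were higher by 4.48 ± 0.36 and 2.68 ± 0.33. Cxcl2 was less evenly spread, in 25 and 28 members, with 41.0% of its UMIs at 2 months in 1 member. Il33, an alarmin of the IL-1 family, read 24.4 and 162 CPM against 6.75 and 21.7, and the monocyte attractants Ccl2 and Ccl7 were higher by 1.77 ± 0.33 and 1.01 ± 0.30. The complement genes C3 and C4b were lower by 1.46 ± 0.33 and 2.37 ± 0.38.

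The dissociation and heat shock list, genes that tissue digestion can induce, is given beside the chemokines. Of its 14 genes 1 was higher (Dnajb1) and 2 were lower (Hspa1a and Hspa1b). Its summed level was 23022 and 37510 CPM in members and 25586 and 28350 in comparators. Its part in the chemokine levels was not tested.

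Of the genes that the series concerns, none of the IL-1 pathway list was higher and 3 of 13 were lower. Il1r2, the decoy receptor for IL-1, read 3.05 and 239 CPM in members against 212 and 615 in comparators (-2.85 ± 0.46), with 1 UMI over all 37 members at 3 weeks. Il1rap, the shared co-receptor, and Il1rl2, the receptor for IL-36, were lower by 1.97 ± 0.39 and 1.29 ± 0.37. Il1r1, the signalling receptor, read 88.4 and 29.9 CPM against 41.5 and 45.2 and did not pass. In the list of WNT ligands and targets 6 of 19 tested genes were lower and none higher. The lower genes were the R-spondin gene Rspo1 (-2.64 ± 0.35), the ligand genes Wnt5a and Wnt2, the feedback inhibitor gene Nkd1, the dermal transcription factor gene Twist2, and Lgr5, which had no UMI in members. Among 8 tested WNT antagonists Dkk2 and Dkk3 were lower. Sostdc1 passed as higher from 5 members at 2 months, with no UMI at 3 weeks.

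Receptors and ligands of neurotrophic signalling were higher in 7 of 17 tested genes and lower in none. Gfra1, the co-receptor for GDNF, read 64.0 and 114 CPM against 5.26 and 3.02 (4.14 ± 0.38), in 16 of 37 and 30 of 57 members. Gfra2, the co-receptor for neurturin, was higher by 2.77 ± 0.51, and the heparin-binding growth factor gene Mdk by 2.89 ± 0.30. Ntrk2, the receptor for BDNF, was higher by 1.46 ± 0.28, in 18 and 22 members. Nrtn and Ptn also passed, but lay in 3 and 4 and in 5 and 2 members. Ret, the signalling partner of the Gfra co-receptors, did not pass.

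Hedgehog response genes gave 2 higher and 1 lower of 10. Gli1, the transcription factor that is itself a target, read 27.4 and 53.8 CPM against 12.1 and 4.86 (2.09 ± 0.48, adjusted p = 0.00432), with a UMI in 7 and 14 members. The receptor gene Ptch1 read 48.8 and 41.9 CPM against 19.8 and 9.90 (1.36 ± 0.38, adjusted p = 0.0267). Neither passed under DESeq2. The co-receptor gene Cdon was lower by 1.16 ± 0.33.

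Of 25 tested axon guidance genes 3 were higher and 5 lower. Slit2, a repellent ligand, read 18.3 and 12 CPM against 75.5 and 107 (-2.90 ± 0.38), and its receptor gene Robo2 was lower by 1.61 ± 0.42. The semaphorin genes Sema3b, Sema3c and Sema3d were lower too. The higher genes were Plxna2, a semaphorin receptor, Rgmb, a BMP co-receptor, and Ntn4, a netrin that binds laminin. In the BMP and TGF-beta list 3 of 20 were lower, Tgfb2 and Id2 among them, and none was higher.

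Lipid transport genes were higher in 3 of 13 cases and lower in none. Abca6 and Abca8b, neighbours of Abca8a in the same transporter family, were higher by 3.17 ± 0.30 and 2.62 ± 0.30, and Apoe by 1.23 ± 0.31 at 731 and 1657 CPM against 358 and 401. Near-identical sequence within this family may split reads between its genes. In the preadipocyte list, Dlk1, an inhibitor of adipogenesis, read 981 and 167 CPM against 52.7 and 0.280 (5.96 ± 0.63). It was found in 28 of 37 and 20 of 57 members, with 54.3% of its 3 week UMIs in 1. Ebf2, a transcription factor of adipose progenitors, read 229 and 278 CPM against 18.4 and 55.4 (2.66 ± 0.31), in 27 and 45 members. Icam1, a surface marker of preadipocytes, was lower by 1.34 ± 0.33. Among other dermal states, none of 8 papillary genes passed, 4 of 6 tendon and fascia genes were lower, and none of 12 cell cycle genes passed. Their median log2 fold changes were -1.35, -2.32 and -1.17, against -0.13 for all genes. Of 11 tested dermal papilla and sheath genes Crabp1 and Fgf7 were lower and Myh11, from 1 member, was higher, with a median of 0.59.

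Markers of other cell types also appeared in members. Of 15 tested Schwann and glial genes 8 were higher and none was lower. Their summed level was 792 CPM in members and 738 in comparators at 3 weeks, and 3846 and 713 at 2 months, against 56293 and 58968 in the Schwann gate. Kcna1 lay in 1 and 4 members. Mbp and Prx lay in at most 8 members of a library. Scn7a, Ngfr and Egr2 were more widely spread. Scn7a, a sodium channel gene, was found in 14 and 34 members, Ngfr, the low-affinity neurotrophin receptor gene, in 5 and 21, and Egr2 in 6 and 16. With the exclusion of glial barcodes widened in both classes beyond Sox10 and Cdh19, 356 genes were higher and 361 lower, and Spp1, Meox1, Sox9, Foxs1 and 6030408B16Rik still passed.

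Keratinocyte genes were higher in 5 of 11 cases, each in at most 8 members of a library, with a summed level of 2432 and 2964 CPM in members and 876 and 676 in comparators. At 3 weeks all UMIs of Krt17, Krt79 and Epcam came from 1 member. Of 7 mural genes, Cspg4 and Mcam were higher in at least 8 members of each library, Myh11 came from 1 member, and the pericyte genes Kcnj8 and Abcc9 were at 0 in members. None of the tested endothelial (4), immune (12), melanocyte (5) and muscle (3) genes passed. The part of these other-cell markers in the remaining differences was not tested.

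Members varied among themselves along the Apod count. At 3 weeks 11 of 37 had fewer than 10 Apod UMIs in spite of a median of 14209 UMIs in all, and at 2 months 4 of 57 had fewer, with a median of 20224. The cut at 10 was chosen after the values were seen. The other 26 held 160751 of the 328171 member UMIs at 3 weeks, and the other 53 held 254389 of 334366 at 2 months. Levels and tests of all members use summed UMIs, so the few low-Apod barcodes weigh in them by their depth. At 3 weeks the low-Apod barcodes held 23.9 CPM of Spp1 and no Trf, against 267 and 647 CPM in the other 26. Ccl11 read 370 CPM in them and 10886 in the others, and 6030408B16Rik read 5.97 and 212 CPM. The matrix genes ran the other way. Cilp, a cartilage intermediate layer protein, was held by 10 of the 11 low-Apod barcodes at 3010 CPM and by 2 of the other 26, and Mfap4, a microfibril protein, by 10 of 11 and 4 of 26. Thbs4 read 3100 CPM in the low-Apod barcodes and 1064 in the others, where 21 of 26 held it. Abca8a differed little, at 376 and 323 CPM. At 2 months the 4 low-Apod barcodes held 2176 CPM of Pi16, in all 4, and no Foxs1, Meox1 or 6030408B16Rik. Meox1 ran the other way at 3 weeks, where 5 of the 11 low-Apod barcodes held 215 CPM and 11 of the other 26 held 93.3.

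The 26 and 53 members with 10 or more Apod UMIs were also compared alone. Their comparison with the comparators gave 371 genes higher and 450 lower, of which 269 and 290 were among those of all members. In these barcodes Spp1 read 267 and 1207 CPM and Trf 647 and 1439. None of the 10 endoneurial genes was found in every member of a library. Spp1 and Meox1 were found together in 8 of 37 and 21 of 57 members, and at 3 weeks 2 members held none of the 10 endoneurial genes.

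**Figure D5:**
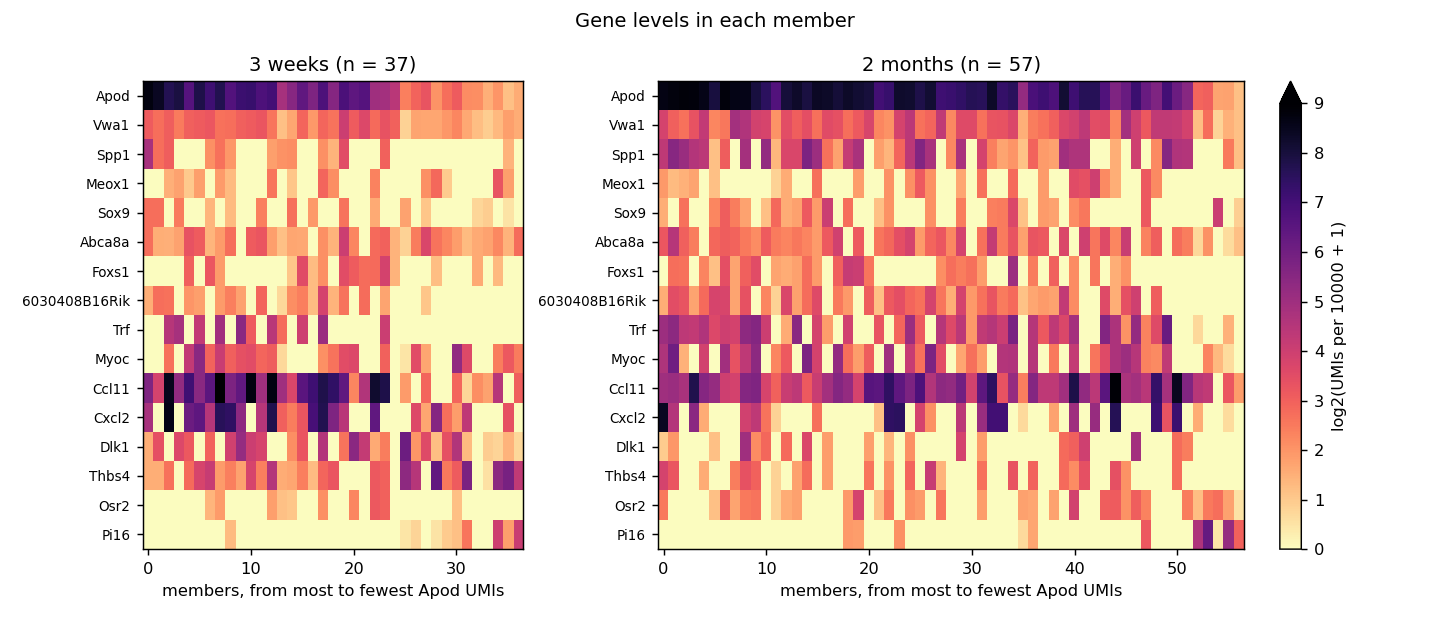
Level of 16 genes in each member, as log2 of UMIs per 10000 plus 1 (color, values above 9 share the darkest color), with members ordered from most to fewest Apod UMIs in the 3 week (left) and 2 month (right) libraries. Members at the right end of the 3 week panel hold Thbs4 and little Ccl11, and Abca8a is found across most members.

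Between the ages, members of the 2 libraries differed in Spp1 and in many matrix genes. Genes were called where CPM differed at least 2-fold with 10 CPM or more in 1 library. Of 8867 genes measured in members, 938 (10.6%) were higher at 2 months and 882 (9.95%) lower, and 196 and 245 of these had separate 95% Poisson intervals. In members 1 UMI is worth 3.05 CPM at 3 weeks and 2.99 at 2 months. Among the rule genes, Vwa1 read 347 CPM at 3 weeks and 721 at 2 months, and Apod 5058 and 15905. Spp1 was higher at 2 months, 143 CPM (95% Poisson interval 105 to 190) against 951 (849 to 1062), while comparators read 7.52 and 3.48. In members with 10 or more Apod UMIs the same gene read 267 and 1207 CPM. Sox9, Osr2, Etv1 and Angptl7 were also called higher, so that 5 of 10 endoneurial genes were higher at 2 months and 2 lower. In members with 10 or more Apod UMIs 3 were higher and 1 lower, and Sox9, at 168 and 232 CPM, and Etv1, at 31.1 and 55.0, stayed within 2-fold. In comparators 1 of these 10 was higher and 2 lower.

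Interstitial matrix genes were lower in the 2 month members. Of 22 measured genes 15 were lower and none higher, with a median log2 ratio of -1.56, against 8 lower and none higher in the comparators, with a median of -0.50. In members with 10 or more Apod UMIs, 13 were lower and none higher. Over all 8867 measured genes, 882 were lower in members, 346 in comparators and 740 in members with 10 or more Apod UMIs. Col6a3, a collagen VI chain found in 34 of 37 and 40 of 57 members, read 1679 CPM (1542 to 1825) at 3 weeks and 263 (211 to 324) at 2 months, and 886 and 406 in comparators. At 3 weeks 402 of its 551 UMIs lay in the 11 low-Apod barcodes, and members with 10 or more Apod UMIs read 927 and 287 CPM. Bgn, the proteoglycan biglycan, read 3306 and 870 CPM, and 2668 and 1913 in comparators. Eln, the elastin gene, read 3611 and 80.7 CPM, in 19 and 10 members. Lum, another small proteoglycan, did not change by 2-fold, at 2529 and 3179 CPM. Of 16 measured basement membrane genes 6 were lower and none higher, with 5 lower in the comparators. Whether these differences belong to age, to the animal or to the mix of barcodes cannot be told apart with 1 library per age.

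Many of the most extreme age ratios rested on few barcodes. The haemoglobin genes Hba-a1, Hba-a2, Hbb-bs and Hbb-bt, and Krt15, were among the 6 highest at 2 months, found in at most 6 of the 57 members each. Of the 6 lowest, Acta2 and 2310046K23Rik had over 90% of their 3 week UMIs in 1 member, H19 had 73.2% in 1 member, Cilp lay in 12 members, Mfap4 in 14 and Eln in 19. H19, an imprinted RNA, read 108 and 0.380 CPM in comparators. Trf and 6030408B16Rik were called higher at 2 months, by 1.80 and 1.73 on the log2 scale, and by 2.06 and 0.87 in comparators. Ccl11 and Cxcl2 kept within 2-fold of their 3 week levels in members.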

How the data were processed

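Each of the 3 libraries was deposited as a matrix of UMI counts, whole numbers that the authors left unnormalised. The submitters' processing notes name mm10 as the build and, as tools, Seurat 2.0 and Cell Ranger 3.0.2. How barcodes were chosen is not given in the sources used here. Kept barcodes numbered 8900 (3 weeks) and 9332 (2 months), and members held 328171 and 334366 UMIs in all.

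Counts were summed per library and class and tested with edgeR 4.0.16 in R 4.3.3 (quasi-likelihood F test, trimmed mean scaling, filterByExpr, library block, adjusted p of 0.05 over all genes). DESeq2 1.42.0 was an alternative. Rule genes and mitochondrial genes were left out of calls. On simulated data for this comparison, with 13104 genes tested, 30 of 98 genes changed by 2 on the log2 scale were recovered and 3 of 99 changed by 1, with 1 false call among 12907 unchanged genes. The simulation drew summed counts with 1 dispersion for all genes and no UMIs gathered in single members. It does not measure false calls of genes carried by 1 member. Shares carry exact Clopper-Pearson intervals and CPM exact Poisson intervals, at 95%. A count under 3 was set to 3 in ratios. Doublets were called by Scrublet in scanpy 1.11.5 (expected rate 0.06) and kept. The Schwann gate asked for 3 or more UMIs of glial genes, Sox10 and Cdh19 among them. The keratinocyte gate asked for at least 2% keratin UMIs (Krt5, Krt14, Krt15, Krt1, Krt10). Both asked for under 2% collagen and Dcn. The 28 lists hold 371 distinct genes. Genes named outside the lists were the 12 highest and 8 lowest by log2 fold change among called genes with 50 CPM or more on average in the higher class and 1 direction, and for age the 6 highest and 6 lowest ratios with 50 CPM or more in 1 library. Some genes of the lists are not reported here. The members and lists were chosen with earlier results of these data known. Alternatives were other scalings, filters, thresholds, comparators and depths, and the alternatives that split or select by 10 Apod UMIs, that thin to 2000 UMIs or that ask for Apod in comparators were chosen after seeing the data.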

Additional observations from a re-analysis of the deposited data

Results flagged for a closer look

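For 6 listed genes the ratio of members over comparators pointed in opposite directions in the 3 week and 2 month libraries with separate counting intervals, and the difference between the libraries was not tested. Cilp, a cartilage matrix protein gene, had a log2 ratio of 3.40 at 3 weeks and -3.59 at 2 months, and its UMIs lay in 12 of 37 and 2 of 57 members. The keratin genes Krt1, Krt5 and Krt15 had log2 ratios of -2.54, -2.47 and -2.57 at 3 weeks and 2.22, 2.30 and 3.28 at 2 months. At 2 months Krt1 lay in 2, Krt5 in 4 and Krt15 in 6 of the 57 members. Mlana, a melanocyte gene, had a log2 ratio of 6.17 at 3 weeks, with 4 UMIs in 1 member and 0.169 CPM in comparators, and -1.59 at 2 months, where members held 2 UMIs and were set to the floor of 3. Bdnf had -1.71 at 3 weeks and 2.59 at 2 months, where its 9 UMIs came from 1 member.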

How the results depend on the processing

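The call counts moved most with library totals, with DESeq2, which changes the test and the size factors together, and without the block. Main counts were 363 higher and 368 lower. DESeq2 gave 130 lower, and library totals gave 658 higher and 242 lower. With no replicate block, the pairing of classes within a library ignored, 3 were higher and 0 lower (1662 at an unadjusted p under 0.05, against 1979 with the block). The other 9 alternatives kept both counts within 1.5 times. Leaving out either library gives ratios with no test. Of the called list genes and members-against-comparators named genes that are reported here, 122 kept their direction without the 3 week library and 119 without the 2 month library. None reversed, and for the others the direction in the remaining library is not known, with under 3 UMIs in members. Genes named outside the lists could not reverse here, because they were chosen among called genes with the same direction in each library. For them the absence of reversals is not a test, and only the called list genes could have reversed. Sostdc1 reversed under DESeq2 (-0.085). The remaining reversals concerned genes carried by few members, and fitted values against 0 UMIs are not bounds. With 3 Vwa1 and 6 Apod UMIs required, they were Acta2 (-13.16), Des (-12.02), Hspb1 (-1.72), Krt1 (-13.02), Krt10 (-3.44), Myh11 (-10.95), Nrtn (-2.03) and Sfn (-0.063). With 10 Apod UMIs required they were Hspb1 (-1.36), Krt1 (-4.15), Krt10 (-2.20), Krt17 (-0.058), Myh11 (-10.88), Nrtn (-1.29), Ptn (-0.15) and Sfn (-0.14). With the exclusion of glial barcodes widened they were Ccl5 (-8.90) and Krt1 (-4.03), and without doublets Krt1 (-3.91). The cause was not tested. Members numbered 20 and 36 under the stricter rule, and 180 and 180 with 1 Vwa1 and 1 Apod UMI. Thinning left out barcodes below the target depth, so these counts are not out of all 37 and 57 members. Of the 23 and 21 members with 5000 or more UMIs, 12 and 14 still met the rule after thinning to 5000. Of the 35 and 53 with 2000 or more, 10 and 28 met it at 2000. A collagen and Dcn share of 5% left 37 at 2 months. For age, 557 genes were higher at 2 months under the stricter rule, 618 with 10 Apod UMIs, and 333 higher and 305 lower at a floor of 50 CPM. With 37 and 57 barcodes, 1 UMI is worth about 3 CPM, which limits all low genes.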

Other observations

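By the same rule the neonatal library held 7 members among 4177 gate barcodes, 0.168% (exact Clopper-Pearson 95% interval 0.0674 to 0.345), which entered no comparison. Their median depth was 13738 UMIs. Spp1, Meox1, Trf, Tenm2 and 6030408B16Rik had no UMI in these 7 barcodes, which together held 103251 UMIs. Thbs4 read 378 CPM against 13.1 in neonatal comparators, Foxs1 58.1 against 7.31, Ngfr 136 against 8.22, and Nid2 116 against 32.2. Dlk1 was abundant in neonatal skin as a whole, at 10605 CPM in the 7 barcodes and 2462 in comparators. Col26a1 read 107 CPM in them and 200 in comparators, and Cxcl2 67.8 against 821. Neonatal comparators with 3 or more Apod UMIs, 513 barcodes, held 5782 CPM of Dlk1 and 2.42 of Spp1.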
